A study of Homo sapiens with 6 samples.

Results

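The transcriptome of wild-type human definitive endoderm was described from 3 RNA-seq libraries, those labelled wild type among 6 libraries of the series. The other 3 come from the same differentiation with the long noncoding RNA GATA6-AS1 knocked down, and no value of theirs was used. The cells were HuES8, an established human embryonic stem cell line. They were kept for 3 days in DMEM-F12 with 0.2% BSA, with 100 ng/mL Activin A throughout and 2.5 µM CHIR, an inhibitor of the kinase GSK3 that stabilises beta-catenin, during the first day, which left 2 days of Activin A alone. All 3 libraries are of 1 line, and the labels give neither a control construct nor whether the replicates were separate cultures, so the spread between them may be technical. No test was made, since all libraries belong to 1 group. Levels are in TPM, which divide the reads of a gene by its length and set the total of each library to 1000000. Where 3 values are given for a gene they are those of replicates 1, 2 and 3 in that order.

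Definitive endoderm is the germ layer that forms the lining of the gut and the organs that bud from it, such as liver and pancreas. It arises from cells that pass through the primitive streak under Nodal signalling, for which Activin A substitutes in culture, with a pulse of Wnt signalling that CHIR supplies. The transcription factors EOMES, MIXL1, GATA6, SOX17 and FOXA2 act in its formation, and the surface receptor CXCR4 is widely used to sort it. The most anterior part of the layer secretes antagonists of Nodal, BMP and Wnt signals, among them CER1, which binds Nodal and BMP ligands outside the cell.

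The library of replicate 3 stood apart from the other 2. Transcripts of mitochondrial DNA took 28.5%, 24.6% and 38.04% of all TPM, a mean of 30.4% ± 6.92 (SD, n = 3), led by MT-CO1 with a mean of 47226 TPM, MT-CO3 with 41718 and MT-CO2 with 40736, subunits of cytochrome c oxidase. Since TPM are shares, leaving out the 37 mitochondrial rows and rescaling each library to 1000000 raised every other gene by factors of 1.40, 1.33 and 1.61. As deposited, 81.5% of the 15831 detected nuclear genes were lowest in replicate 3, and after rescaling 50.6% were. Pearson's r of log2(TPM + 1) over the detected genes, which are not independent replicates, was 0.991 between replicates 1 and 2 and 0.985 and 0.983 for the pairs with replicate 3. The table keeps no depth, but its low values step by whole reads, which gave an estimated 24187332, 22631146 and 19307386 reads over annotated genes. At this depth 3 reads of a gene of 2 kb correspond to 0.210 to 0.234 TPM. Transcripts were detected, here meaning at least 1 TPM in each of the 3 libraries, for 15863 of 58830 rows (27.0%) and for 12422 of 19184 protein-coding nuclear genes (64.8%).

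All 8 of the chosen endoderm markers were among the highest 1000 of the genes outside mitochondrial DNA by mean level. CER1 was the highest of all, at 23474, 25177 and 22060 TPM, a mean of 23570.1 ± 1560.5 TPM (SD, n = 3). FGF17, a secreted fibroblast growth factor, had 2113, 2085 and 2117 TPM and rank 16. EOMES, a T-box factor that starts the endoderm programme, had 1185, 1314 and 1219 TPM and rank 32. These first 3 markers held the ranks 1, 1 and 1 for CER1, 15, 18 and 14 for FGF17 and 33, 32 and 32 for EOMES in the 3 libraries taken one by one. SOX17, the factor most often used to define the layer, had 537, 673 and 443 TPM and rank 108. OTX2, a homeobox factor of anterior tissue, had 439.7, 458 and 451 TPM, and GATA6, a zinc-finger factor needed for human endoderm, had 367, 385 and 286 TPM. CXCR4, the receptor of the chemokine CXCL12, had 251, 260.2 and 202 TPM. FOXA2, a forkhead factor of endoderm and its derivatives, was the lowest of the 8, with 126, 129.9 and 126 TPM and rank 917. The marker levels thus ran from 127 to 23570.1 TPM, and all 8 were above 100 TPM in every library. In bulk RNA, fewer cells of a type and less RNA per cell cannot be told apart, so none of these levels says what share of the cells carried a transcript.

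**Figure D1:**
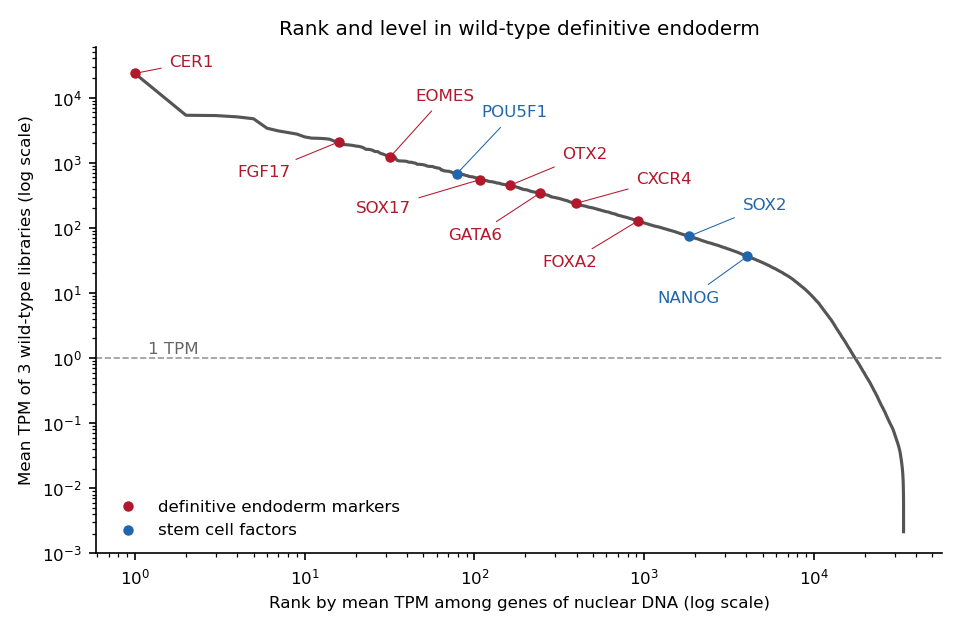
Mean TPM of 3 wild-type libraries (vertical axis, log scale) against rank (horizontal axis, log scale) for the genes outside mitochondrial DNA; red points are the 8 endoderm markers and blue points 3 stem cell factors. CER1 stands alone above 10000 TPM, and the other markers fall between FGF17 at 2105 and FOXA2 at 127 TPM.

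The sequence upstream of CER1 is shown because it precedes the most abundant nuclear transcript of the profile. That of MIXL1 is shown because MIXL1 was the most abundant sequence-specific factor in a list of 674 transcription genes. Both are the 250 bases before the RefSeq start site (GRCh38.p14), 5′ to 3′ on the strand of the gene: chr9:14722734-14722983, minus strand, for CER1, and chr1:226223414-226223663, plus strand, for MIXL1. Capitals mark matches on either strand to TGTNNATT, a core that FOXH1 binds, which is the forkhead partner of SMAD2 and SMAD3 in Nodal signalling.
CER1 promoter: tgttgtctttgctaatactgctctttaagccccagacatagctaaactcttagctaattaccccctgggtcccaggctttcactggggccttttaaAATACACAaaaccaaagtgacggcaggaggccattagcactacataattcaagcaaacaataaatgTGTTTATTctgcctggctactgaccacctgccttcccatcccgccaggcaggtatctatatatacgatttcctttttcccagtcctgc
MIXL1 promoter: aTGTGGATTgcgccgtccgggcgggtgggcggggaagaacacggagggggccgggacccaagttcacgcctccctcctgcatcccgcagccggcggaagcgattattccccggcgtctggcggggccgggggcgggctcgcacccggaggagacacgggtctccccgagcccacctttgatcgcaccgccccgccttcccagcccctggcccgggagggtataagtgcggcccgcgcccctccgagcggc
CER1 held 2 matches, at positions -154 to -147 (on the opposite strand) and -88 to -81 from the start site, and MIXL1 held 1, at -249 to -242. The same window of EOMES, also searched and not shown, held no match to TGTNNATT. Of the 41 endoderm genes that were detected, 27 had an entry in the RefSeq promoter table, and 5 of these (18.5%) held the core, against 9.90% of all 27305 promoters of that length. A GATA core, AGATAA, was in 3 of the 27 (11.1%) against 9.37% of all, and a T-box core, AGGTGTGA, in 1 of 27 (3.70%) against 0.787%. Neither GGATTA, bound by OTX2 and GSC, nor TGTTTAC, bound by FOXA factors, was in any of the 27, against 5.67% and 2.98% of all promoters. These cores are short, none of the other 4 matched in the CER1, MIXL1 or EOMES window, and a match describes letters and not binding.

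The 5 miRNA precursors of the cluster that marks human embryonic stem cells were detected as well, and their mature sequences are shown because 4 of them share 1 seed. The mature forms below are from RefSeq (GRCh38.p14), and capitals mark the seed, bases 2 to 8.
hsa-miR-302a-3p: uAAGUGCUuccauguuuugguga
hsa-miR-302b-3p: uAAGUGCUuccauguuuuaguag
hsa-miR-302c-3p: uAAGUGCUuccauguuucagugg
hsa-miR-302d-3p: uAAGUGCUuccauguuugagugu
hsa-miR-367-3p: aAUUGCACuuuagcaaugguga
hsa-let-7d-5p: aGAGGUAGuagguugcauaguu
The first 4 carry the seed AAGUGCU, miR-367-3p carries AUUGCAC, and let-7d-5p carries GAGGUAG, the seed of the let-7 family, which LIN28A keeps from maturing in stem cells. Rows of the table are precursor genes, so the values that follow are not levels of the mature forms. A precursor is so short that 3 reads of MIR302A are worth up to 6.77 TPM, and a single read is then above the 1 TPM limit. MIR367 (chromosome 4, 112647874 to 112647941, minus strand) was listed at 123, 133 and 148 TPM, from an estimated 60, 58 and 65 reads. MIR302A had 54.7, 54.2 and 74.0 TPM and MIR302B 46.0, 64.0 and 61.5 TPM. MIR302C had 30.8, 34.4 and 22.8 TPM and MIR302D 16.4, 20.6 and 38.7 TPM, the latter from only 8, 9 and 17 estimated reads. All 5 were thus detected in each library, while 75 of the 1715 miRNA precursors matched by name (4.37%) were, and the ranges of MIR302A and MIR302B overlapped, as did those of MIR302C and MIR302D. The 5 lie within the gene LARP7 on its opposite strand and within the noncoding gene AC106864.1 on their own strand, whose exons share 45 of the 73 bases of MIR302B. Reads of the precursors cannot be told apart from unspliced RNA of either gene, and for AC106864.1 a strand setting would not separate them. The cluster of MIR371A, MIR372 and MIR373, which shares the AAGUGCU seed through miR-372-3p and miR-373-3p, was listed at 0 for the first and second in every library and at 2.03, 2.26 and 4.49 TPM for the third. Of 11 let-7 precursors 3 were detected and 6 were listed at 0 throughout, and the highest, MIRLET7D, had 24.0, 23.7 and 10.3 TPM from 15, 13 and 6 estimated reads.

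**Figure D2:**
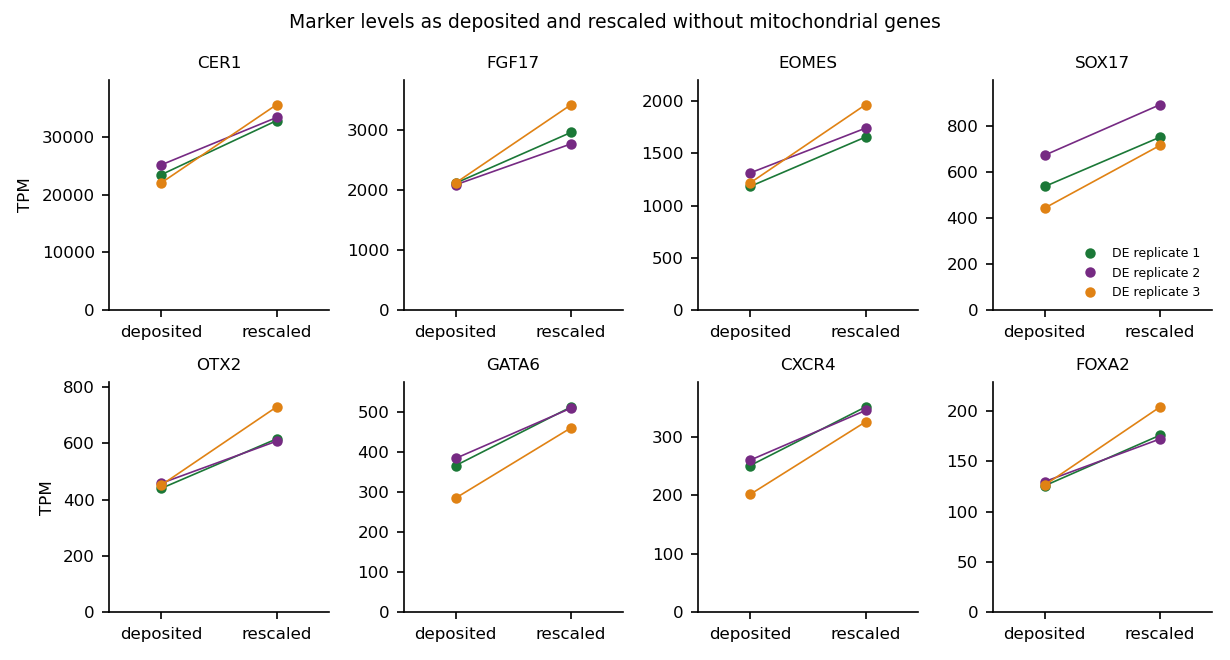
TPM of the 8 endoderm markers (vertical axes from 0) in the 3 wild-type libraries, as deposited and after rescaling without mitochondrial genes; lines join the values of 1 library. FOXA2, OTX2, EOMES and FGF17 lay close together as deposited and have replicate 3 on top once rescaled, while SOX17, GATA6 and CXCR4 have replicate 3 lowest on both scales.

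The choice of scale changed which markers looked steady. FOXA2 had a mean of 127 ± 2.21 TPM as deposited and 184 ± 17.4 TPM rescaled, and FGF17 went from 2105 ± 17.3 to 3046 ± 335 TPM (SD, n = 3). GATA6 went the other way, with a smaller relative spread after rescaling, from 346 ± 52.8 to 495 ± 29.2 TPM, and so did CXCR4, from 238 ± 31.4 to 341 ± 13.3 TPM. SOX17 kept its order on both scales, replicate 2 highest and replicate 3 lowest, at 751, 892 and 716 rescaled TPM. CER1 had its lowest value in replicate 3 as deposited and its highest there after rescaling, at 32839.9, 33385 and 35606 rescaled TPM. The order of genes within a library is the same on both scales, and the ranks given here are among nuclear genes.

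Across the profile, the median protein-coding gene had a mean of 6.61 TPM, 44.4% had at least 10 TPM and 6.19% at least 100 TPM. Above 1000 TPM stood 43 nuclear genes and above 10000 TPM only CER1, which alone made up 3.39% ± 0.147 of rescaled TPM (SD, n = 3), from 3.28% to 3.56% by library. The next were the cytoskeletal actins ACTB at 5368 and ACTG1 at 5069.8 TPM, the elongation factor EEF1A1 at 5310.2, the actin-binding TMSB10 at 4744, HMGA1 at 3397, the glycolytic enzyme GAPDH at 3087, the ribosomal protein RPL13A at 2904, the elongation factor EEF2 at 2759 and the ribosomal protein RPS2 at 2498 TPM. CER1 exceeded ACTB by 4.13-fold to 4.67-fold in the 3 libraries. The 100 most abundant genes held 44.4% ± 6.17 of TPM, and the 100 most abundant nuclear genes held 22.0% ± 1.08 of rescaled TPM (SD, n = 3). Cytosolic ribosomal protein genes, 84 of 87 detected, held 6.41% of rescaled TPM and matched long noncoding RNA genes 1.08%. The 20932 rows matched to no annotated gene held 3.94%, with 1903 detected. Noncoding genes among them are not in the 1.08%. The levels of EEF1A1 and RPS2 are uncertain, since the near-identical processed copies EEF1A1P5 at 2377 TPM and RPS2P5 at 2146 TPM could share their reads.

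Among secreted products the antagonist CER1 and the ligand FGF17 came first, with collagen and growth factor genes behind them. The list of 399 secreted genes had 234 members detected (58.6%, against 64.8% of all protein-coding genes) and held 6.49% ± 0.153 of rescaled TPM (SD, n = 3), to which CER1 alone contributed 3.39%. After CER1 and FGF17 came SERPINB9 with 1412, 1533 and 1235 TPM, a granzyme B inhibitor that stays inside the cell although its family is largely secreted. COL6A1, an alpha chain of collagen VI, had 1115, 1148 and 1012 TPM, and its partner chain COL6A2 had 582, 589 and 423 TPM. MDK, the heparin-binding growth factor midkine, had 1003, 982 and 861 TPM. The ranges of CER1, FGF17, SERPINB9, COL6A1, MDK and SPARC did not overlap from each to the next, so the first 6 places were the same in every library.

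From SPARC onwards the order was less firm. SPARC, a matrix glycoprotein of basement membranes, had 726, 791 and 716 TPM and TDGF1, the Nodal co-receptor that is anchored to the membrane and also shed, had 716, 784 and 672 TPM. The Wnt antagonist SFRP1 had 523, 610.3 and 472 TPM, the neuropeptide galanin (GAL) 542, 622 and 405 TPM, the lipid carrier APOE 491, 512 and 532 TPM and the lysosomal saposin precursor PSAP 493, 529 and 443 TPM. The 5 genes SFRP1, COL6A2, GAL, APOE and PSAP overlapped their neighbours in range and changed order between libraries. Just below the 12 highest stood the collagen chain COL5A2 at 469 TPM and the matrix protein MFAP4 at 465 TPM, followed by LEFTY1, DKK4 and LEFTY2.

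**Figure D3:**
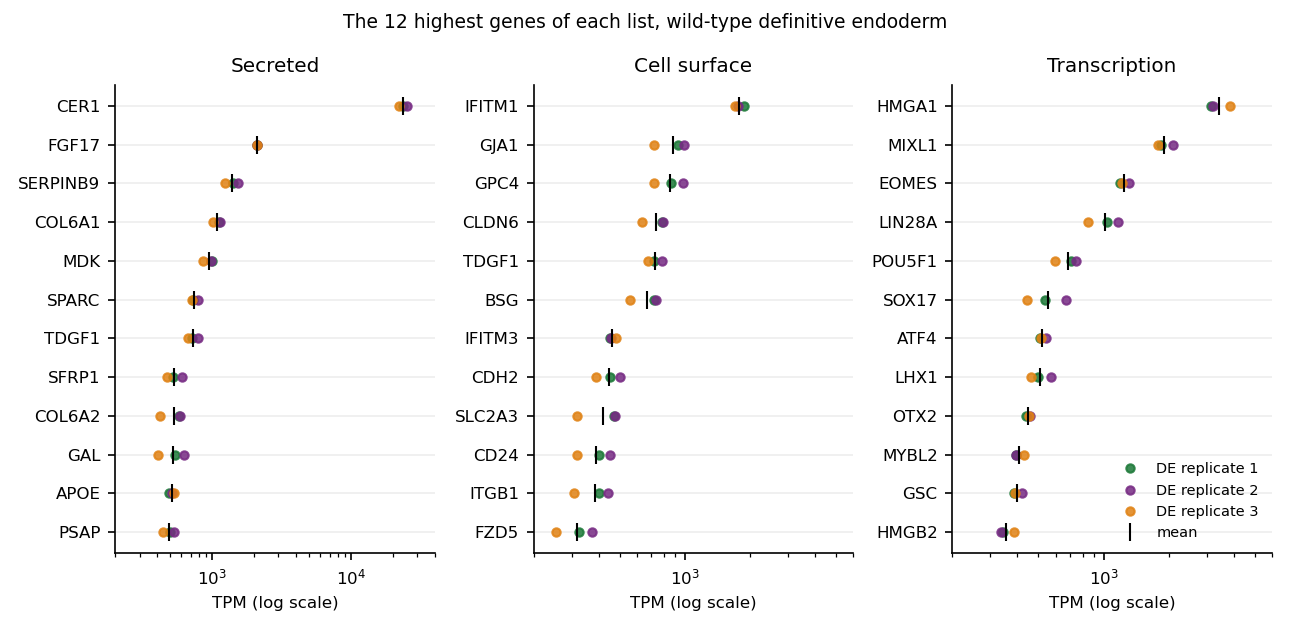
TPM (horizontal axes, log scale) of the 12 genes with the highest mean in the lists of secreted, cell surface and transcription genes; dots are the 3 wild-type libraries and ticks their means. The secreted panel spans from CER1 at 23570.1 to PSAP at 489 TPM, while the lower places of each panel overlap between neighbours.

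At the cell surface an interferon-inducible protein came first, and genes of junctions and of ligand binding followed. The surface list had 349 of 451 members detected (77.4%, against 64.8% of protein-coding genes) and held 3.32% ± 0.0914 of rescaled TPM (SD, n = 3). IFITM1, an interferon-inducible membrane protein, had 1868, 1763 and 1709 TPM, clear of every other member. GJA1, the gap junction protein connexin 43, had 925, 991 and 723 TPM, and GPC4, a glypican that presents Wnt and FGF ligands, had 865, 980.2 and 716 TPM. CLDN6, a tight junction claudin of early embryonic epithelia, had 781, 796 and 636 TPM. GJA1 exceeded GPC4 and GPC4 exceeded CLDN6 in each library, though the ranges overlapped.

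TDGF1, already described among the secreted genes, came next, followed by BSG with 719, 735 and 555 TPM, the chaperone subunit of lactate transporters. IFITM3 had 451, 453 and 481 TPM, the cell adhesion molecule CDH2 (N-cadherin) 450.5, 499 and 387 TPM, and the glucose transporter SLC2A3 471, 473 and 316 TPM. BSG stood above IFITM3 without overlap, and IFITM3 was highest in replicate 3. CD24 had 399, 451 and 316 TPM, the integrin subunit ITGB1 402, 441 and 309 TPM and the Wnt receptor FZD5 324, 374 and 254 TPM. Between CLDN6, TDGF1 and BSG, and at each step from IFITM3 to ITGB1, neighbouring genes changed places in 1 of the 3 libraries. IFITM1 and IFITM3 are close paralogs, and reads that fit both make their levels uncertain.

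The surface genes used to identify endoderm were below these. CXCR4, at a mean of 238 ± 31.4 TPM, had a range that overlapped the Wnt receptor FZD7 at 254, 287 and 165 TPM. CCKBR, the cholecystokinin B receptor, had 221, 198 and 174 TPM, the adhesion molecule EPCAM 169, 182 and 153 TPM and the stem cell factor receptor KIT 124, 139.8 and 97.4 TPM. CDH2 exceeded CDH1 (E-cadherin, 118, 129.8 and 115 TPM) by 3.36-fold to 3.84-fold, and both cadherins were above 100 TPM in every library. Of 24 epithelial genes 23 were detected (95.8%, against 64.8% of protein-coding genes), with KRT8 at 344, KRT19 at 186 and KRT18 at 139.5 TPM, keratins of simple epithelia. Of 16 genes of the mesenchymal transition 13 were detected (81.2%), among them the matrix protein FN1 at 221, the repressor SNAI1 at 85.3 and vimentin (VIM) at 84.0 TPM. The repressors ZEB1, SNAI2, ZEB2 and TWIST1 had means of 2.08, 1.02, 0.917 and 0.553 TPM.

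Of 674 genes of the transcription list 411 were detected (61.0%, against 64.8% of protein-coding genes), and the list held 3.78% ± 0.163 of rescaled TPM (SD, n = 3). Its highest member, HMGA1 with 3140.1, 3216 and 3834 TPM, is an architectural chromatin protein and not a sequence-specific factor, and it was highest in replicate 3. The homeobox factor MIXL1 (ENSG00000185155.11, chromosome 1, 226223618 to 226227054, plus strand) had 1848, 2091 and 1781 TPM and was the highest factor of the list in the strict sense. EOMES followed, and MIXL1 exceeded it by 1.46-fold to 1.59-fold. LIN28A, an RNA-binding protein that blocks let-7 maturation, had 1032, 1166 and 843 TPM, and POU5F1 (OCT4) had 708, 745 and 594 TPM. The first 5 places, HMGA1, MIXL1, EOMES, LIN28A and POU5F1, did not overlap in range.

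SOX17 was next, and its range overlapped those of POU5F1 and of ATF4, the stress-response factor with 506, 540.4 and 513 TPM. The LIM homeobox factor LHX1, of the anterior streak and endoderm, had 500, 568 and 464 TPM, followed without overlap by OTX2. MYBL2, a cell cycle factor, had 395, 395 and 428 TPM, GSC (goosecoid), the classic gene of the organizer, 386, 420.2 and 390 TPM, and HMGB2, a DNA-bending chromatin protein, 342, 337 and 385 TPM. GATA6 stood just outside the 12, with a range that overlapped HMGB2. POU5F1 exceeded SOX17 in each library, SOX17 being at 0.746 to 0.904 of its level.

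Within families of endoderm factors, levels were unequal. GATA4, a partner of GATA6, had 189, 180 and 202 TPM, so that GATA6 exceeded it by 1.41-fold to 2.14-fold, while GATA3 had 42.3, 35.9 and 43.1 TPM. FOXA2 exceeded FOXA3 (34.7, 32.5 and 30.3 TPM) by 3.63-fold to 4.17-fold and FOXA1 (1.33, 1.25 and 1.52 TPM) by 83.4-fold to 104-fold. HHEX, a homeobox factor of anterior endoderm and later of liver and thyroid buds, had 107, 119 and 85.9 TPM and PRDM1 had 76.6, 77.4 and 69.9 TPM. FOXA1, at a mean of 1.37 TPM, was only just detected, and the transcriptional repressor RIPPLY1, at 1.76, 0.524 and 0.781 TPM, was the 1 of 42 definitive endoderm genes that was not. The median of these 42 genes was 162 TPM, against 6.61 TPM for all protein-coding genes. The list was drawn up from genes known for this cell type, and its count describes the label.

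Among nuclear genes matched to a noncoding gene of at least 300 bases in the annotation, pseudogenes left out, the 2 highest were intergenic RNAs with means close to that of SOX17. LINC00458 (ENSG00000234787.7, chromosome 13, 54115783 to 54132866, minus strand, GRCh38), a noncoding RNA of human stem cells, had 597, 518 and 514 TPM. LINC01356 (chromosome 1, 112820170 to 112850643, minus strand) had 439, 497 and 581 TPM, with its highest value in replicate 3, and its exons share 400 of 1823 bases with another noncoding gene on the opposite strand. GATA6-AS1 (ENSG00000266010.2, chromosome 18, 22164886 to 22169878, minus strand), the antisense neighbour of GATA6 and the target of the knockdown in the other libraries, had 389, 421 and 313 TPM. LINC00458 and LINC01356 overlapped in range, and GATA6-AS1 was below both in each library.

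GATA6-AS1 and GATA6 were at nearly the same level per length, with a ratio of 1.06, 1.09 and 1.10 in the 3 libraries. Their exons share 240 of the 3173 bases of GATA6-AS1, and without a stated strand setting reads in that stretch cannot be assigned. LINC00657, also called NORAD, a cytoplasmic RNA that binds PUMILIO proteins, had 201, 245 and 147 TPM, and LRRC75A-AS1, which hosts small nucleolar RNAs, had 194, 199 and 145 TPM. ESRG, transcribed from an endogenous retrovirus and known from human stem cells, had 137, 125 and 128 TPM. Then came TUG1 at 115, the snoRNA hosts SNHG6 at 111 and SNHG1 at 99.1, and OIP5-AS1 at 90.9 TPM. LINC00261, the neighbour of FOXA2, had 38.5, 41.2 and 33.5 TPM. Of 2 nuclear RNAs that are abundant in many cell types, MALAT1 had 31.1, 26.9 and 22.2 TPM and NEAT1 had 1.77, 1.87 and 1.27 TPM. Short structural RNAs used by every cell were at unlike levels: RN7SK had 7.60, 22.1 and 3.27 TPM, RMRP 1.04, 3.49 and 1.16 TPM, RPPH1 1.53, 0.732 and 0.243 TPM and RN7SL1 0.466, 0 and 0 TPM, and RN7SL2 was at 0 in every library. A row at 0 is therefore described here only as listed at 0.

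Genes known from embryonic stem cells were abundant in the endoderm libraries, with no library of the undifferentiated cells to set them against. Of 54 stem cell genes 43 were detected (79.6%, against 64.8% of protein-coding genes), with a median of 36.9 TPM. LIN28A, TDGF1 and POU5F1 led them, followed by L1TD1, an RNA-binding protein derived from a retrotransposon, with 686, 721 and 573 TPM. The de novo DNA methyltransferase DNMT3B had 437, 473 and 383 TPM and the zinc-finger factor ZIC2 305, 327 and 328 TPM. OTX2 and CD24 are also on this list, and OTX2, TDGF1 and CD24 are not particular to stem cells. Reads of POU5F1 could be shared with its processed copies, which makes its level uncertain.

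The 3 core factors of pluripotency were at unlike levels. SOX2, which with POU5F1 maintains the stem cell state, had 73.1, 80.8 and 67.4 TPM and rank 1829, and NANOG had 38.2, 40.7 and 30.9 TPM and rank 4067. POU5F1 exceeded SOX2 by 8.82-fold to 9.68-fold and NANOG by 18.3-fold to 19.2-fold. SOX17 exceeded SOX2 by 6.58-fold to 8.33-fold. Others of the stem cell list were in the same range as NANOG, with PRDM14 at 38.6, 39.1 and 33.9 TPM and ZFP42 (REX1) at 38.1, 36.5 and 28.8 TPM, while DPPA4 had 198, 218 and 184 TPM and SALL4 180.2, 187 and 155 TPM. The 11 members under the limit included genes of the naive or earlier embryonic state, with means of 0.822 TPM for KLF4, 0.819 for TFCP2L1, 0.663 for DNMT3L and 0.348 for ESRRB, with KLF17 at 0.0446, 0.0995 and 0 TPM and DPPA5 listed at 0 in every library. VSNL1, at 0.895 TPM, was the member closest below the limit.

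Of the primitive streak genes, those also known from endoderm were high, and the mesoderm regulators MESP1, MESP2 and MSGN1 were under the limit. Of 27 members 20 were detected (74.1%, against 64.8% of protein-coding genes), with a median of 37.3 TPM. Brachyury (T), the T-box gene of the whole streak, had 35.1, 39.0 and 33.3 TPM, and MIXL1 exceeded it by 52.7-fold to 53.5-fold and EOMES exceeded it by 33.7-fold to 36.6-fold. SP5, a Wnt target, had 103, 111 and 79.7 TPM, the ligand gene WNT3 50.4, 55.1 and 43.9 TPM and the homeobox gene EVX1 19.9, 19.3 and 15.4 TPM. The mesoderm regulators MESP1, MESP2, TBX6 and MSGN1 had means of 0.247, 0.790 and 6.33 TPM and, for MSGN1, 0 in every library. CDX1 and CDX2, of the posterior streak, had means of 0.115 and 0.156 TPM.

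In the Activin and Nodal pathway 24 of 30 genes were detected (80.0%, against 64.8% of protein-coding genes), and the endogenous ligand was present beside its antagonists. NODAL had 252, 276 and 246 TPM, while the genes of the Activin subunits INHBA and INHBB were under 0.1 TPM in every library although the protein was added to the medium. Of the feedback antagonists, LEFTY1 had 449, 543 and 281 TPM and LEFTY2 had 355, 434 and 301 TPM. LEFTY1 exceeded LEFTY2 in replicates 1 and 2 and was below it in replicate 3, and the near-identical pair could share reads. CER1 exceeded NODAL by 89.5-fold to 93.0-fold, a steadier ratio than that of CER1 to LEFTY1, which ran from 46.4-fold to 78.6-fold.

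Of the receptor genes, that of the co-receptor TDGF1, at a mean of 724 TPM, was above NODAL, LEFTY1 and LEFTY2 in each library, and those of type I and type II receptors were below them. ACVR2B had 47.4 TPM, TGFBR1 47.4 and ACVR1B 37.2 TPM, and the signal transducers SMAD3, SMAD4 and SMAD2 had 23.9, 20.3 and 7.04 TPM. SMAD3 exceeded SMAD2 by 3.19-fold to 3.78-fold. Their partner FOXH1 had 279.7, 289 and 251 TPM, above all 3 SMAD genes. The convertase gene FURIN, whose product cuts pro-Nodal, had 117, 113 and 87.9 TPM. The inhibitory SMAD7 had 75.8, 89.5 and 60.3 TPM.

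Wnt genes were detected in 45 of 58 cases (77.6%, against 64.8% of protein-coding genes), and the highest were antagonists and receptors. Behind SFRP1 came the antagonist DKK4 with 345, 449.5 and 373 TPM and SFRP2 with 306, 333 and 271 TPM. DKK4 exceeded DKK1 (12.4, 10.6 and 7.09 TPM) by 27.8-fold to 52.7-fold. The receptors FZD5 and FZD7 led the frizzled genes, FZD5 being 1.28-fold to 1.54-fold above FZD7. SHISA2, which retains frizzled and FGF receptors inside the cell, had 149, 176 and 103 TPM. CTNNB1 (beta-catenin) had 309, 336 and 231 TPM, and among the nuclear partners TCF7L1 had 240.4, 232 and 250.2 TPM while LEF1 was at 0.443, 0.378 and 0.549 TPM. AXIN2, a target used as a readout of the pathway, had 49.9, 53.2 and 43.3 TPM.

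In the FGF and BMP pathways 34 of 40 genes were detected (85%, against 64.8% of protein-coding genes). FGF17 exceeded its close relative FGF8 (59.9, 55.3 and 72.8 TPM) by 29.1-fold to 37.7-fold, and FGF4 had 57.7, 75.1 and 53.0 TPM. Of the feedback genes of FGF signalling, the highest were SPRY4 with 155, 158 and 141 TPM, SPRY2 with 133, 141 and 119 TPM and IL17RD (SEF) with 125, 148 and 103 TPM. The ETS factor ETV4, another target, had 156, 148 and 123 TPM. The receptor genes FGFR1, FGFR2, FGFR3 and FGFR4 had means of 87.1, 66.0, 50.1 and 35.5 TPM. Of BMP genes, the ligand BMP2 had 161, 156 and 132 TPM and BMP4 14.8, 13.8 and 10.9 TPM, and of the targets ID3 had 254, 251 and 196 TPM and ID1 had 155, 177 and 119 TPM.

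Genes of other lineages were mostly under the limit. The 16 lineage lists hold 250 genes that are on none of the endoderm, stem cell, streak, pathway, epithelial and mesenchymal lists, and 63 of them were detected (25.2%), with a median of 0.183 TPM. In all 3 libraries 55 were under 0.1 TPM, and 20 of these were listed at 0. The share detected was 64.8% for all protein-coding genes. By the lowest of the 3 libraries, CLEC14A at 1.02 TPM was the gene just inside the limit and LHX2 at 0.991 TPM the gene just outside it.

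**Figure D4:**
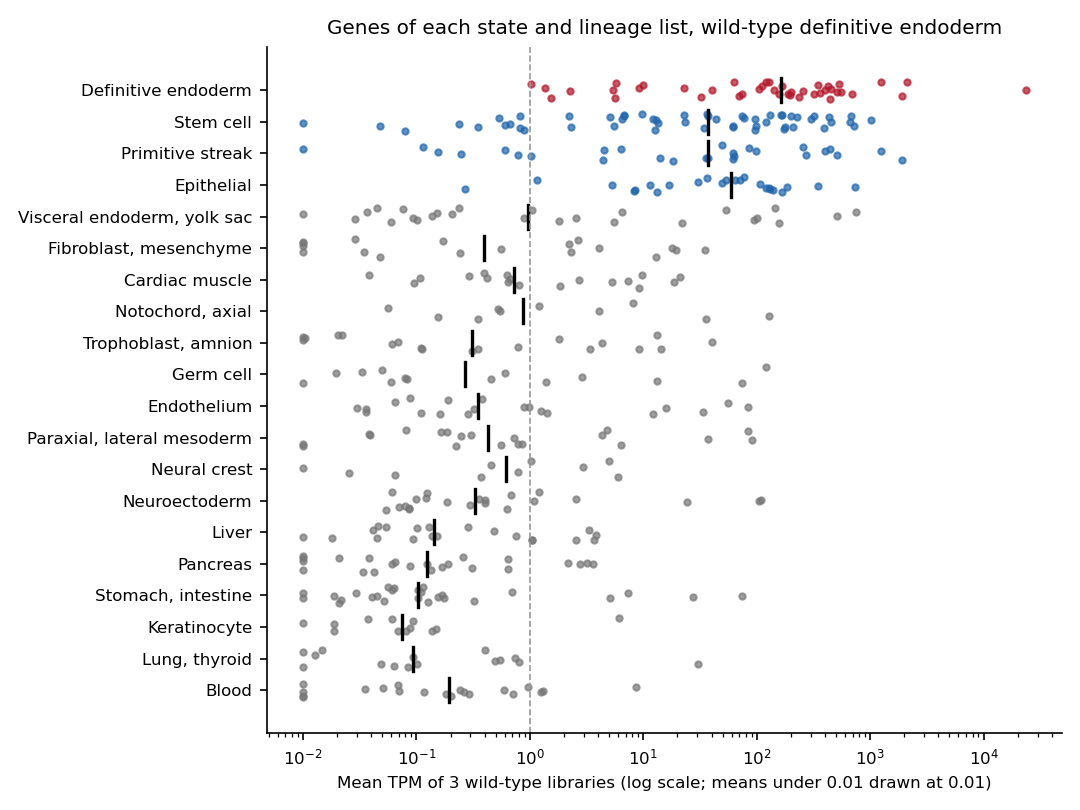
Mean TPM of 3 wild-type libraries (horizontal axis, log scale) for each gene of 20 lists; dots are genes, thick bars list medians, the dashed line 1 TPM, and a gene may be on more than 1 list. The endoderm median is 162 TPM, the stem cell, streak and epithelial medians lie between 36.9 and 59.0 TPM, and every lineage list has its median under 1 TPM.

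The lists with the fewest detected genes were those of mature tissues, while 64.8% of all protein-coding genes were detected. In blood 1 of 20 was detected, the integrin ITGA2B at 9.62, 8.67 and 7.73 TPM. The globin genes HBB, HBG1, HBG2 and HBZ were listed at 0 throughout, but the other globin genes of the list were not. HBE1 had 0.452, 1.18 and 2.17 TPM, under the limit in replicate 1 only. HBA1 had 0.837, 0.187 and 0.742 TPM and HBA2 0, 0.546 and 0.181 TPM. In keratinocytes 1 of 12 was detected (8.33%), KRT10 at 5.66, 6.53 and 6.05 TPM, and the epidermal genes DSG1, DSG3 and LOR were under 0.1 TPM. In lung and thyroid 1 of 15 was detected (6.67%), the secretoglobin SCGB3A2 at 28.3, 29.3 and 33.3 TPM, while FOXE1 and SCGB1A1 were listed at 0. No other member of these 3 lists was detected.

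Most genes of organs that later arise from endoderm were under the limit, while 64.8% of all protein-coding genes were detected. Of 20 liver genes 4 were detected, led by PROX1 at 4.12, 4.33 and 2.98 TPM and the asialoglycoprotein receptor ASGR1 at 4.06, 3.95 and 3.02 TPM, with HNF4A at 3.36, 2.34 and 2.01 TPM. Albumin (ALB) had 0.166, 0.0923 and 0.0458 TPM and AFP 0.0858, 0.0478 and 0 TPM. Of 23 pancreas genes 4 were detected (17.4%), among them PRSS1 at 3.63, 3.22 and 2.83 TPM, a gene with near-identical copies. INS, GCG and PTF1A were listed at 0 and PDX1 had 0, 0.0623 and 0 TPM. Of 26 stomach and intestine genes 4 were detected (15.4%). Of the 22 that are on no other state list 2 were detected (9.09%), among them BARX1 at 27.8, 30.3 and 24.7 TPM.

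Visceral endoderm, an extraembryonic layer that shares SOX17, GATA6 and FOXA2 with definitive endoderm, is a lineage that these shared markers cannot separate from it. Of its plasma protein genes, the lipid carrier APOE was high and others were low. TTR had 0.0643, 0.0717 and 0.142 TPM and APOA1 had 1.18, 1.09 and 0.870 TPM. The fibrinogen genes FGA, FGB and FGG had means of 0.0761, 0.0364 and 0.0288 TPM, and SERPINA1 was listed at 0. The uptake receptor gene AMN had 6.68, 7.91 and 5.0 TPM and CUBN 1.86, 2.07 and 1.46 TPM. Of the 26 visceral endoderm genes 12 were detected (46.2%, against 64.8% of protein-coding genes). The highest were APOE and the basement membrane genes SPARC, COL4A1 at 157, COL4A2 at 144, LAMC1 at 101 and LAMB1 at 95.0 TPM. Many other cell types also express these.

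Ectoderm and mesoderm gave a few genes at clear levels among many under the limit. Of 22 neuroectoderm genes 5 were detected (22.7%, against 64.8% of protein-coding genes), 3 of them at 5 TPM or more in each library. These 3 were the intermediate filament nestin (NES), the homeobox gene SIX3 and ZIC1. NES had 104, 131 and 90.9 TPM, SIX3 97.6, 114 and 100 TPM and ZIC1 24.7, 26.0 and 22.6 TPM. PAX6 had a mean of 2.54 TPM, and SOX1, which was under the limit, had 0.399 TPM. Neural crest gave PAX7 at 5.47, 6.91 and 5.54 TPM and FOXD3 at 4.96, 6.72 and 3.19 TPM with SOX10 listed at 0. FOXC1, of paraxial mesoderm, had 83.9, 99.0 and 91.3 TPM with MEOX1 at 0.0382 TPM.

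The endothelial list behaved likewise, with 7 of 20 genes detected (35.0%, against 64.8% of protein-coding genes). The receptor KDR had 84.1, 94.1 and 73.5 TPM, EGFL7 62.0, 56.0 and 48.9 TPM and von Willebrand factor (VWF) 33.9, 38.3 and 29.4 TPM, while the defining junction genes PECAM1 and CDH5 had means of 0.161 and 0.110 TPM and FLI1, ROBO4 and EMCN were under 0.1 TPM in every library. Of 18 cardiac muscle genes 8 were detected (44.4%, against 64.8% of protein-coding genes). They included NPPB at 29.2, 17.1 and 17.2 TPM and the calcium channel RYR2 at 19.3, 21.4 and 15.8 TPM. The factor TBX5 had 7.18, 7.82 and 7.13 TPM and NKX2-5 had 7.28, 5.73 and 3.03 TPM. Troponin T (TNNT2) and MYH6 had means of 0.293 and 0.0957 TPM. Of 19 trophoblast and amnion genes 7 were detected (36.8%), 4 of them at 5 TPM or more in each library. The highest were GATA3 at 42.3, 35.9 and 43.1 TPM and the retroviral envelope gene ERVW-1 at 14.0, 14.0 and 14.9 TPM. CGB5 and ERVFRD-1 were listed at 0. Of 14 germ cell genes 5 were detected (35.7%), led by KIT and PRDM1, both also endoderm genes, and DND1 was listed at 0. Of 18 fibroblast genes 8 were detected (44.4%). They included TAGLN at 38.8, 36.5 and 29.4 TPM, COL1A2 at 21.2, 20.5 and 16.2 TPM and COL1A1 at 20.9, 18.0 and 15.4 TPM. DCN and PRRX1 were under 0.1 TPM.

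The HOX genes, which pattern the trunk along its axis, had 10 of 39 members detected (25.6%, against 64.8% of protein-coding genes), none of them in paralog groups 5 to 8. Groups 1 to 4 had 3 of 12 detected, groups 5 to 8 had 0 of 11 and groups 9 to 13 had 7 of 16. HOXD13 was the highest, at 55.5, 49.5 and 41.3 TPM, followed by HOXB13 at 17.6, 19.7 and 18.6 TPM and HOXD10 at 19.1, 18.5 and 16.4 TPM. Of the first groups HOXB3 had 11.3, 10.2 and 9.57 TPM and HOXB2 10.1, 11.3 and 7.95 TPM. HOXD13 was above the other HOX genes in each library, and the ranges of HOXB13 and HOXD10 overlapped.

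**Figure D5:**
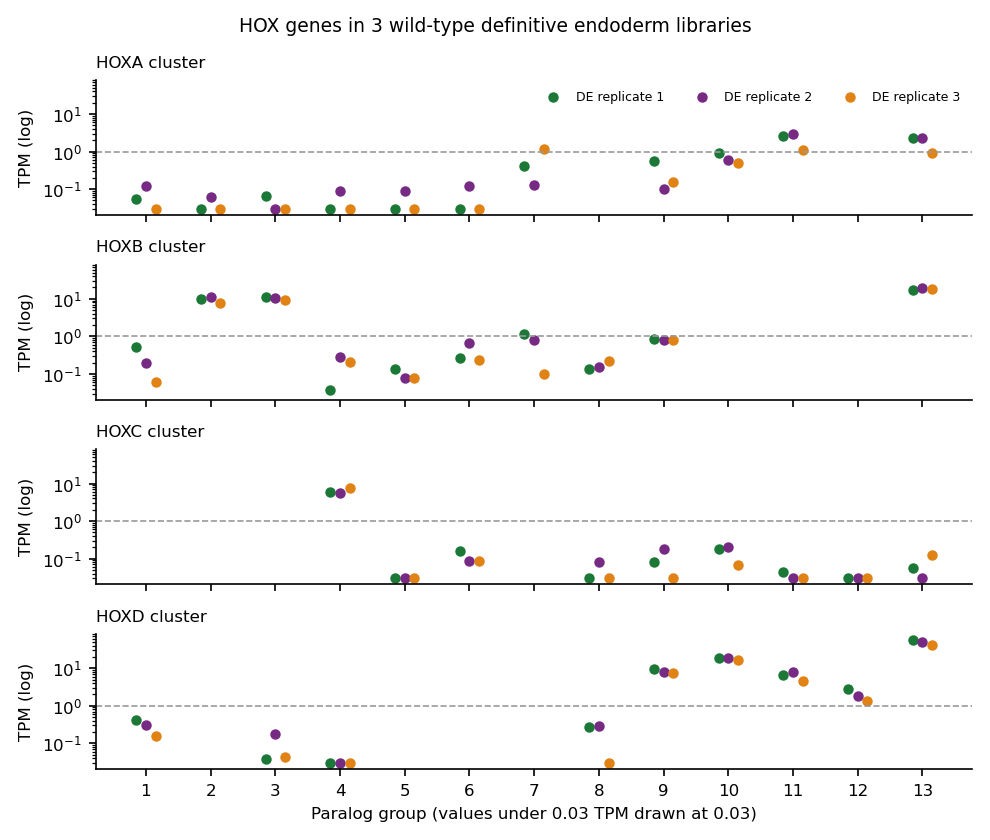
TPM (vertical axes, log scale) of the HOX genes by paralog group (horizontal axis) in the 4 clusters; dots are the 3 wild-type libraries and the dashed line marks 1 TPM. HOXD13 is the highest at 48.8 TPM, and no gene of groups 5 to 8 is above the line in all 3 libraries.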

How the data were processed

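RNA-seq was made from 3 wild-type libraries of HuES8 definitive endoderm, named in the sample titles as replicates 1 to 3. The authors deposited 1 table of TPM for 58830 rows and 6 libraries, and each column adds up to 1000000 (per the file headers, and checked on the values). The 3 knockdown columns entered no value. GRCh38, featureCounts, DESeq2 and HISAT2 2.1.0 are named by the submitters' processing notes. The annotation release, the strand setting, the filters and the RNA selection are not given. Without strand, reads of overlapping or antisense genes cannot be told apart, and TPM lower every gene where 1 class of RNA takes more.

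For each gene the mean and SD over the 3 libraries, the rank among rows outside mitochondrial DNA (symbols that do not start with MT-) and the value after rescaling without those rows were computed with Python 3.11.15, numpy 2.4.6 and pandas 2.3.3. A gene was called detected at 1 TPM or more in each library. Rows were matched to GENCODE 29 by symbol (37175) or by an older symbol (723). TPM times summed exon length stepped by whole reads, with 88.2% to 88.4% of values under 50 reads within 0.02 of a whole number, which gave the estimated reads. The step was checked on simulated data. These estimates cover counting error only and serve to describe depth. The 28 rows whose symbol had turned into a date are not named. A few genes of the lists are counted but not reported here by name.

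No comparison between groups was made and no test was run. The members and gene lists were chosen with earlier results of these data known. The rule for naming took the 8 markers, the 12 highest genes of each of the secreted, surface and transcription lists, the 10 highest nuclear genes and the 3 highest mitochondrial ones, and the 10 highest noncoding genes of at least 300 bases. It also took up to 8 highest genes of the stem cell, streak and pathway lists with core factors of each, 2 highest and up to 3 near-absent genes of each lineage list, and the 5 most variable genes of at least 20 TPM. Other genes of the lists, the HOX genes, the miRNA precursors and the promoters were chosen after their values were seen. Sequences are from RefSeq, GRCh38.p14. Alternatives were other limits of detection, rescaling, a median-ratio scaling, means of log2(TPM + 1) or log2(TPM + 0.1), and leaving out each library.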

Additional observations from a re-analysis of the deposited data

How the results depend on the processing

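Of the members of other lineages, 63 were detected at 1 TPM, 121 at 0.1 TPM and 32 at 5 TPM, so that count depends on the limit, and between 63 and 67 were detected when 1 library was left out. Rescaling without mitochondrial genes lowered the share of the 100 most abundant genes from 44.4% to 22.0%, because the alternative takes mitochondrial genes out of these 100. It also lowered the median coefficient of variation over detected genes from 15.3% to 9.56%, and a median-ratio scaling gave 9.25%. Leaving out 1 library gave a median of 6.68% without replicate 3, 15.2% without replicate 2 and 18.2% without replicate 1. With 1 library left out the genes detected numbered 16161 to 16734, and the endoderm members 41 and the stem cell members 43 each time. The mitochondrial share was then 26.6% to 33.3% and the share of the 100 most abundant genes 41.0% to 46.9%. Each time 24 of 33 neighbouring pairs kept the order of their means over all 3 libraries in both remaining libraries. In all 3 libraries 20 of 33 kept it (the order was recounted after seeing the data). Of 114 named levels of nuclear genes 107 moved by more than 1 SD on rescaling, all upwards, since the factors are above 1, and the 3 named mitochondrial genes have no value on that scale. No paired analysis was possible because no result comes from a test and the knockdown libraries enter no value. Depth limits statements on low genes: under about 0.234 TPM a gene of 2 kb rests on fewer than 3 estimated reads.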

Other observations

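Of the 5 genes that differed most between the 3 wild-type libraries, 1 was matched to a protein-coding gene. Among nuclear genes of at least 20 TPM in each library, the highest coefficients of variation were those of the ribosomal protein pseudogene RPL24P4, at 182, 206 and 692 TPM in replicates 1, 2 and 3, and of CH507-513H4.3, at 111, 128 and 23.8 TPM. RP11-673C5.1 had 73.6, 77.6 and 199.6 TPM and the pseudogene PPIAP22 40.1, 47.9 and 108 TPM. The protein-coding gene was ATP6V0C, a subunit of the proton pump of lysosomes, at 100.2, 89.4 and 24.1 TPM. In all 5, replicate 3 was the library apart, in either direction.

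Of the 71 protein-coding genes with a histone cluster symbol (HIST, a number and H), 19 were detected, and the median of the 71 was 0.513 TPM. They were picked by symbol and not by whether they depend on replication. The share detected is under the 64.8% of protein-coding genes, the set to which all 71 belong. It is near the 27.0% of all rows, but most of those rows are not protein-coding genes. The highest were the linker histone gene HIST1H1C at 67.5, 64.8 and 55.0 TPM and HIST1H2BK at 71.9, 62.1 and 43.9 TPM. Pseudogenes held 3.49% ± 0.346 of rescaled TPM (SD, n = 3), and 702 of the 9123 matched were detected. The highest miRNA precursor row was MIR4664, at 325, 393 and 164 TPM, above MIR367 and the MIR302 precursors; it is 71 bases long, and the values rest on 165, 179 and 75 estimated reads.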
